A study of Mus musculus with 3 samples.

Results

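The colony-stimulating factors and their receptors were described in chromatin-bound RNA of stimulated mouse macrophages. The set was chosen by name and not by value, but with earlier results of these data known. It holds 3 ligand genes (Csf1, Csf2 and Csf3) and 5 receptor genes (Csf1r, Csf2ra, Csf2rb, Csf2rb2 and Csf3r), 8 of the 55536 annotated genes. All 8 had counts, and 7 were detected, meaning at least 1 TPM in each of 3 libraries. Of the 22028 protein-coding genes, 35.7% passed this threshold. TPM is a level corrected for transcript length and for the library's total. The cells were primary bone-marrow-derived macrophages of C57BL/6J mice that had received 100 ng/ml Lipid A, the TLR4-activating part of bacterial lipopolysaccharide, for 60 minutes. Ribosomal RNA was depleted from chromatin-fraction RNA, which holds nascent and partly spliced transcripts. The labels gave 1 group of 3 biological replicates, prepared from 1 µg, 250 ng and 500 ng of RNA for replicates 1, 2 and 3, and no unstimulated sample was analysed here. The values below are thus levels after stimulation, not responses to it. The labels gave 1 donor entry for all 3 libraries and did not say whether animals differed. Each p-value therefore covers the spread between libraries alone, and that spread may be technical. Gene counts totalled 13318395, 15352661 and 15812581 in replicates 1, 2 and 3.

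Colony-stimulating factors are the growth factors on which blood cells of the myeloid lineages depend. CSF1 (M-CSF) keeps macrophages alive through CSF1R, a receptor tyrosine kinase, and is the factor with which marrow is commonly turned into macrophages in culture. CSF2 (GM-CSF) binds an alpha chain, CSF2RA, which pairs with the beta common chain, CSF2RB, and this chain also serves IL-3 and IL-5. Mice carry a second beta gene, Csf2rb2, whose product serves IL-3 only. CSF3 (G-CSF) acts through CSF3R, the receptor that drives neutrophil production. Macrophages that meet lipopolysaccharide are known to make CSF1, CSF2 and CSF3 themselves.

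The libraries carried the marks of the labelled cell type. All 13 macrophage markers were detected, led by Gpnmb at 1164 ± 341 TPM (SD, n = 3), and their summed level was 1752, 2668 and 2356 TPM in replicates 1, 2 and 3. None of 14 neutrophil markers was detected; 9 had no count, among them Ctsg and Fcnb, and the summed neutrophil level was 0.210, 0.300 and 0.370 TPM. The 8 fibroblast markers summed to 0.360, 1.47 and 1.62 TPM with none detected, and none of 6 B cell markers, 8 mast cell, basophil and eosinophil markers or 6 progenitor and monocyte markers was detected. Of 8 endothelial markers 2 were detected (Vwf at 45.6 ± 6.01 and Kdr at 1.95 ± 0.234 TPM), with Cldn5 and Emcn at no count. Of 8 T cell markers only Cd28 was detected in all 3 libraries, at 10.9 ± 3.31 TPM. These counts come from the gene tables, and the second transcript table deposited with each library gave more: 1 neutrophil, 2 fibroblast, 3 endothelial, 4 T cell, 2 B cell and 3 progenitor and monocyte markers. The highest of those added, named after values were seen, was Cd3d, with a mean of 25 TPM in the second table and no count in the gene tables.

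Among the ligands, Csf1 was by far the highest and stood at rank 225 of 22028 protein-coding genes by mean level. Its level was 174 TPM in replicate 1, 145 TPM in replicate 2 and 176 TPM in replicate 3, a mean of 165 ± 17.7 TPM (SD, n = 3) resting on 6822 to 8669 expected counts. Replicate 2 was the lowest of the 3, and all were far above the median detected coding gene, at 8.13 TPM. In these bulk libraries a larger share of expressing cells and more RNA per cell cannot be told apart, for Csf1 and for every gene below. Csf1 (ENSMUSG00000014599.10) lies on the minus strand of chromosome 3 from 107741048 to 107760469 (mm10, GENCODE M21), between Ahcyl1, at 35.7 ± 5.79 TPM, and Eps8l3, which had no count.

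Csf2, on the minus strand of chromosome 11 from 54247271 to 54249667, was detected at a much lower level, with 12.4, 15.0 and 16.0 TPM in replicates 1, 2 and 3 (14.5 ± 1.86, SD, n = 3; 136, 140 and 153 counts). The libraries differed little, and the gene stood at rank 2760 of the coding genes. Its near neighbour Il3, 15636 bases away on the same strand and a cytokine read by the same beta chain, had no count in any library. An antisense gene, Gm12223, overlaps Csf2 and held 1, 2 and 0 counts.

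Csf3 was the lone member that was not detected. On the plus strand of chromosome 11 from 98701263 to 98703629, it had 5, 14 and 10 counts, or 0.230, 0.710 and 0.50 TPM in replicates 1, 2 and 3. Scaled to the library's gene counts (CPM, which has no length correction), this was 0.375 CPM in replicate 1 (exact 95% Clopper-Pearson interval 0.122 to 0.876), 0.912 in replicate 2 (0.499 to 1.53) and 0.632 in replicate 3 (0.303 to 1.16); such intervals cover counting error only. The 3 intervals overlap, so no difference between libraries was detectable at this depth. Its mean, 0.480 ± 0.241 TPM, was above the median of all coding genes, 0.240 TPM. In the second transcript table Csf3 had 0.494, 1.19 and 1.09 TPM in replicates 1, 2 and 3, so only replicate 1 fell below 1 TPM there. The flanking genes Psmd3, a proteasome subunit gene 5284 bases away, and Med24, a Mediator subunit gene 962 bases away on the opposite strand, were at 10.1 ± 2.38 and 5.49 ± 0.867 TPM.

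**Figure D1:**
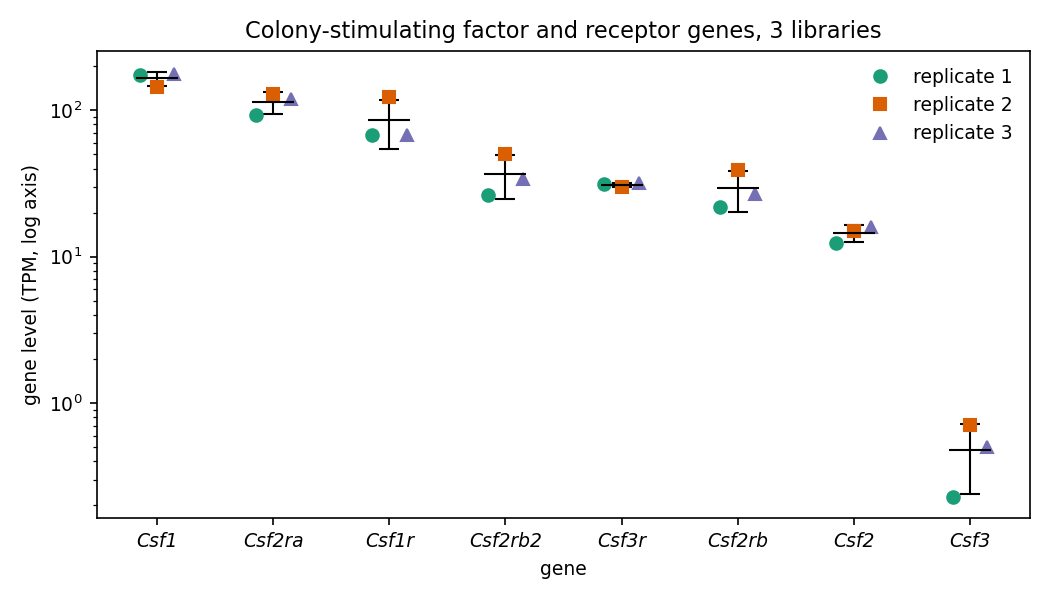
Level of each gene in TPM (vertical log axis) in replicates 1 (circles), 2 (squares) and 3 (triangles), with the mean and SD over the 3 libraries as a bar and whiskers, ordered by mean. Csf1 is highest at 165 TPM, Csf3 alone lies below 1 TPM, and for Csf1r the replicate 2 square, at 123 TPM, stands clear of both others, at 68.0 and 67.3 TPM.

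All 5 receptor genes were detected. Csf2ra, the GM-CSF alpha chain gene on the minus strand of chromosome 19 from 61223957 to 61228429, was highest by TPM over all its annotated transcripts: 92.8, 130 and 120 TPM in replicates 1, 2 and 3, a mean of 114 ± 19.4 (SD, n = 3) from 1520 to 1946 counts. Replicate 1 was the lowest. Most of this level was assigned to annotated transcripts without a coding sequence, as given below.

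Csf1r, the CSF1 receptor gene on the plus strand of chromosome 18 from 61100598 to 61132149, had 68.0, 123 and 67.3 TPM in replicates 1, 2 and 3 (86.1 ± 32.0, SD, n = 3; 4254 to 7668 counts). Replicate 2 stood apart, 1.83 times the lowest library, and the other two were alike. Pdgfrb, the related receptor kinase gene 15537 bases away on the same strand, was at 0.0467 ± 0.0153 TPM, and Slc26a2 on the other side was at 3.27 ± 0.545 TPM.

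The 2 beta chain genes lay close together on chromosome 15 and were near each other in level. Csf2rb2 (minus strand, 78282507 to 78305721) had 26.3, 50.4 and 34.0 TPM in replicates 1, 2 and 3, a mean of 36.9 ± 12.3 (SD, n = 3). Csf2rb (plus strand, 78325752 to 78353847) had 21.8, 39.3 and 26.9 TPM, a mean of 29.3 ± 9.00. Both were highest in replicate 2 and lowest in replicate 1, and their ranges overlap. The pair is flanked by Ncf4, an NADPH oxidase subunit gene at 76.2 ± 8.50 TPM, on the Csf2rb2 side, and by Tex33, with no count, on the Csf2rb side.

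Csf3r, on the plus strand of chromosome 4 from 126024550 to 126044440, had 31.6, 30.0 and 31.7 TPM in replicates 1, 2 and 3 (31.1 ± 0.939, SD, n = 3; 1312 to 1533 counts). The 3 libraries were nearly equal on this scale. CSF3R is best known from neutrophils, and none of the 14 neutrophil markers was detected in the gene tables. The second table gave 1 of them, Cxcr2, a mean of 3.29 TPM; it is named after its value was seen. Of the flanking genes, Mrps15 was at 3.63 ± 1.04 TPM and Grik3 had no count.

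In the order of mean TPM (Csf1, Csf2ra, Csf1r, Csf2rb2, Csf3r, Csf2rb, Csf2, Csf3), 4 of the 7 steps separated genes whose ranges did not overlap: Csf1 over Csf2ra, Csf1r over Csf2rb2, Csf2rb over Csf2, and Csf2 over Csf3. Differences in log2(TPM + 1) were formed library by library, and their signs were permuted in an exact two-sided test. With 3 libraries this exact test cannot go below p = 0.25, so none of 11 differences could pass. Csf2rb2 exceeded Csf3r in 2 of 3 libraries (0.19 ± 0.50, SD; exact p = 0.75), and Csf3r exceeded Csf2rb in 2 of 3 (0.12 ± 0.46; exact p = 0.75). These neighbours do not differ beyond their spread. Csf2ra exceeded Csf1r in 3 of 3 libraries by 0.45 ± 0.37, but the ranges overlap. The largest step was Csf2 over Csf3, at 3.39 ± 0.15 in 3 of 3 libraries (exact p = 0.25, 0.31 after Benjamini-Hochberg adjustment over the 11 differences).

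Ligand and receptor RNA were compared within each of the 3 systems, and the systems were not tested against each other. Csf1 exceeded Csf1r in each library, by 1.34, 0.23 and 1.38 log2 units in replicates 1, 2 and 3. The mean difference was 0.98 ± 0.65 (exact p = 0.25, adjusted 0.31), and the TPM ratio averaged over the libraries was 2.12. The smallest gap was in replicate 2, where Csf1 was lowest and Csf1r highest. In that library the order turned on other scales: Csf1 was at 102 TPM and Csf1r at 109 TPM over coding transcripts only, and with TMM factors they were at 413 and 464 CPM. The mean difference was then 0.74 over coding transcripts and 0.58 in CPM (exact p = 0.50 for each). Csf2 lay below Csf2ra in each library, at -2.89 ± 0.13, and Csf3 below Csf3r, at -4.45 ± 0.27 (exact p = 0.25 for each, adjusted 0.31). The Csf2 value turned to 0.16, with Csf2 above Csf2ra, when only coding transcripts were summed, an alternative chosen after values were seen.

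Over coding transcripts only, the order changed at 1 gene above all. By mean, Csf1 was first at 126 ± 20.8 TPM, Csf1r was second at 77.5 ± 27.4 with a range that overlaps that of Csf1, Csf2rb2 came next at 36.5 ± 11.6 and then Csf3r at 25.6 ± 1.23 TPM (SD, n = 3 each). Csf2ra took place 7 of 8, at 9.55, 13.8 and 15.6 TPM in replicates 1, 2 and 3 (13.0 ± 3.13). Csf2, at 14.5 ± 1.86 TPM, and Csf2rb, at 14.5 ± 3.08 TPM, stood just above it, and the ranges of these 3 overlap.

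The annotated transcript classes show which RNAs those totals hold. GENCODE calls a transcript a retained-intron form when it keeps intron sequence and has no coding frame, and a processed transcript when it is spliced but has no coding frame assigned. In chromatin-fraction RNA, intron reads of transcripts not yet spliced cannot be told apart from those of retained-intron forms. The class values below are thus assignments to annotated transcripts. The boundaries at which retained-intron forms run on into an intron are shown for the highest such form of Csf1, Csf2ra and Csf2rb. None is shown for Csf1r, because its form Csf1r-204 crosses neither splice site of the intron it holds in part. Each line gives 30 exon bases in lower case and the first 30 intron bases in capitals, 5′ to 3′ on the gene's strand, in mm10.
Csf1-206, intron 6, chr3:107748124-107748183, minus strand: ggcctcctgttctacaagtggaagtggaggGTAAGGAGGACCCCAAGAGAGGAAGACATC
Csf2ra-202, intron 6, chr19:61226185-61226244, minus strand: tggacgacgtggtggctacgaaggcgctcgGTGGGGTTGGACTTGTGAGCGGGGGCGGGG
Csf2ra-202, intron 7, chr19:61225898-61225957, minus strand: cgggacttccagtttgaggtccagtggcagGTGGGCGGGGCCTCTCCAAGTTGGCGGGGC
Csf2ra-202, intron 8, chr19:61225762-61225821, minus strand: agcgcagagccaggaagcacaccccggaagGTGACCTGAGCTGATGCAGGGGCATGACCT
Csf2rb-205, intron 3, chr15:78336442-78336501, plus strand: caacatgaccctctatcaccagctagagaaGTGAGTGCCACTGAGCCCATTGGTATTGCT
Every boundary shown opens with GT, the usual first bases of an intron, and each form reads on past it; the wider splice site sequence was not scored.

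Csf2ra had the most RNA assigned outside coding transcripts. Retained-intron forms held 45.7, 39.8 and 42.4% of its TPM in replicates 1, 2 and 3 (42.6 ± 2.93, SD, n = 3), processed transcripts 46.0 ± 3.05% and coding transcripts 11.3 ± 1.5%. By expected counts, which do not weight short transcripts up, retained-intron forms held 68.3 ± 0.943%, processed transcripts 11.4 ± 1.13% and coding transcripts 20.3 ± 2.01%. Coding transcripts were the minority on both scales. The leading retained-intron form, Csf2ra-202, keeps the whole of introns 6, 7 and 8 of 11 (159, 106 and 139 bases) and the last 29 bases of intron 4, and had 22.8, 33.5 and 31.0 TPM. The highest Csf2ra transcript by TPM was Csf2ra-204, a processed transcript of only 330 bases, at 34.0 ± 7.90 TPM from 62 to 69 counts. The coding transcript Csf2ra-201 was at 12.7 ± 3.46 TPM from 267 to 430 counts.

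Csf1 was mostly coding. Coding transcripts held 79.0, 70.6 and 78.6% of its TPM in replicates 1, 2 and 3 (76.0 ± 4.75, SD, n = 3), with replicate 2 lowest, and 83.3 ± 3.16% of its counts. Csf1-201, which encodes the long precursor of 552 codons, led with 77.8 ± 8.35 TPM, or 47.2% of the gene. In the second table it held 17.7%, at 50.1 TPM, and Csf1-205, a coding form of 182 codons, led with 71.5 TPM, so the leading transcript depends on the table. Csf1-202, whose coding sequence of 257 codons gives the short precursor known to stay at the cell surface, was at 22.0, 5.98 and 19.0 TPM, and replicate 2 was again lowest. The 1 retained-intron form, Csf1-206, ends 421 bases into intron 6 of 8 and was steady at 36.5, 42.6 and 37.8 TPM (39.0 ± 3.19).

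Csf1r transcripts were coding at 90.3 ± 1.46% of TPM and 95.3 ± 0.740% of counts (SD, n = 3). Both leading transcripts, Csf1r-201 at 53.0 ± 16.8 TPM and Csf1r-202 at 24.4 ± 10.8 TPM, encode the same 977 codons, and each was highest in replicate 2. In the second table Csf1r-201 still led, at 75.7 TPM, but Csf1r-202 was at 6.41 TPM, below Csf1r-204 at 15.5 and Csf1r-203 at 15.1 TPM. The retained-intron form Csf1r-204 had 5.82, 14.0 and 5.96 TPM, and was likewise highest in replicate 2. It holds 344 of the 5131 bases of intron 11 as an end exon of its own, which touches neither splice site of that intron.

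For Csf2rb the class shares depended on the scale. Coding transcripts held 50.3 ± 6.53% of its TPM but 76.4 ± 2.16% of its counts, and retained-intron forms held the rest (SD, n = 3). Csf2rb-201, of 896 codons, was at 14.4 ± 3.06 TPM. The retained-intron form Csf2rb-205 carries 1911 of the 2330 bases of intron 3 and was at 8.75 ± 2.50 TPM from 273 to 434 counts, whereas Csf2rb-207, 370 bases long, gave 4.13, 10.7 and 3.49 TPM from only 13, 24 and 8 counts. The annotation has no retained-intron form of Csf2rb2 or Csf3r and a single transcript for Csf2 and for Csf3. Csf2rb2 was coding at 99.2 ± 1.47% of TPM, and Csf3r at 82.4 ± 4.96% with 17.6 ± 4.96% in processed transcripts.

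**Figure D2:**
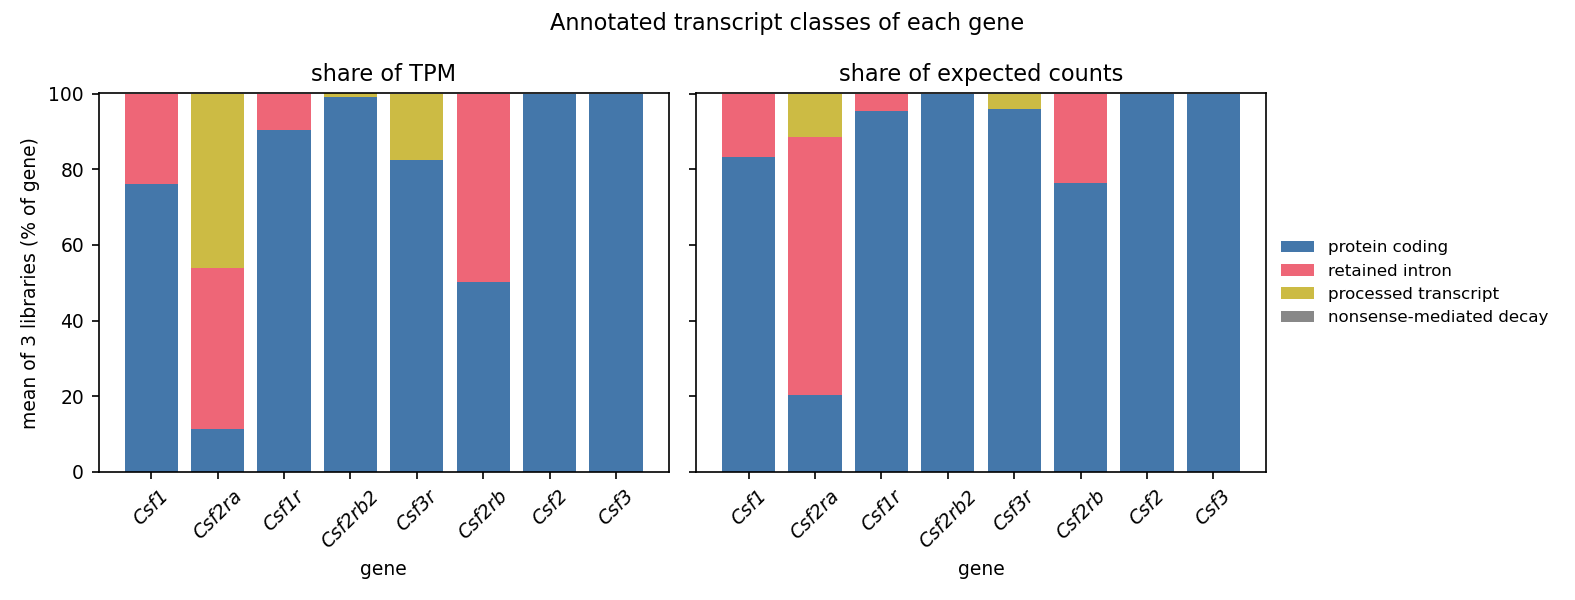
Mean share of each gene's TPM (left) and expected counts (right), in percent over 3 libraries, held by annotated transcript classes in the first transcript table. Csf2ra alone is mostly outside the coding class on both scales, with 11.3% of TPM and 20.3% of counts in coding transcripts, and Csf2rb differs between the scales, with 50.3% and 76.4%.

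Retained-intron and coding isoforms were compared within each gene with limma, in 5601 genes that have both classes, and p-values were adjusted over all of them by the Benjamini-Hochberg method. Of the 4 colony-stimulating factor genes that could be tested, 1 had higher retained-intron isoforms, where 35.5% of all genes tested did, and 2 had higher coding isoforms, where 31.8% of all genes did. With 4 genes these shares cannot be set apart from the background. Csf2ra had the log2 ratio of retained-intron over coding TPM at 2.09, 1.87 and 1.67 in replicates 1, 2 and 3 (mean 1.88, SE 0.14, limma adjusted p = 1.07e-05), at the 91.1 percentile of all genes tested. Every library was well above the median gene, at 0.08. Whether the Csf2ra intron reads came from transcripts not yet spliced was not tested. Csf1r lay at the other end, with -3.31, -2.91 and -3.26 (mean -3.16, SE 0.14, limma adjusted p = 1.00e-06), at the 1.9 percentile. Taken as the mean TPM per annotated transcript of each class, both calls held with smaller ratios, 0.87 for Csf2ra (limma adjusted p = 9.29e-04) and -1.19 for Csf1r (limma adjusted p = 2.02e-04).

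Csf1 and Csf2rb lay between these. Csf1 had a ratio of -1.90, -1.25 and -1.86 (mean -1.67, SE 0.16, limma adjusted p = 4.06e-05), so coding isoforms were higher in each library. Per annotated transcript, the Csf1 ratio turned to 0.89 (limma adjusted p = 0.00197), since 6 coding transcripts are annotated and 1 retained-intron form. Csf2rb had -0.05, 0.37 and -0.37, a mean of -0.02 (SE 0.18, limma adjusted p = 0.937), and its libraries fell on both sides of 0. Per annotated transcript it was 1.17 (limma adjusted p = 5.84e-04), so neither direction is given for Csf2rb.

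**Figure D3:**
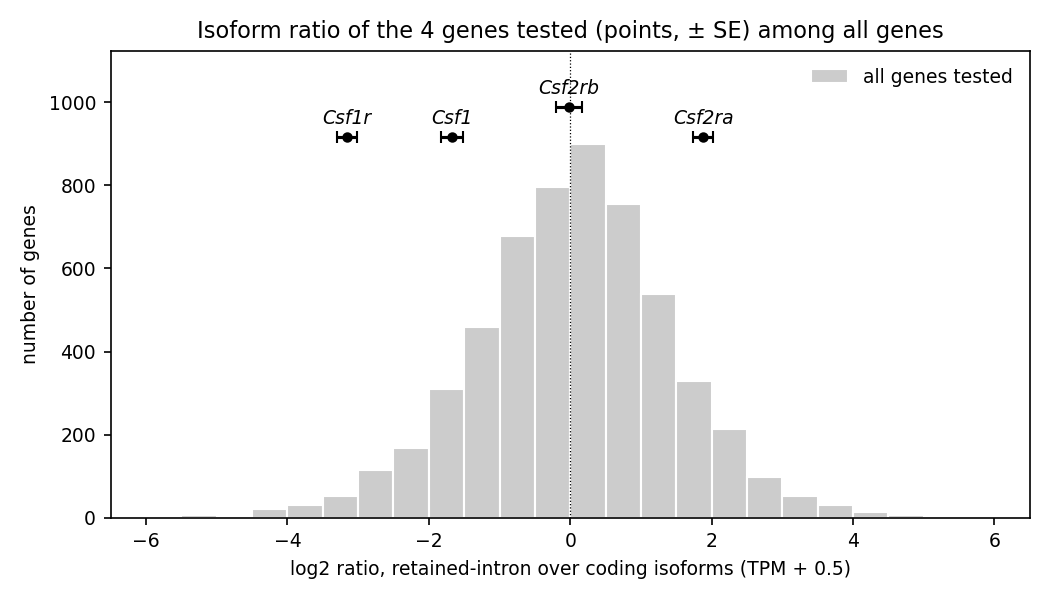
Histogram of the log2 ratio of retained-intron over coding TPM (0.5 added to each) in 5601 genes, with the 4 genes tested here as points with their SE above it. Csf2ra lies to the right at 1.88, Csf2rb at -0.02, Csf1 at -1.67 and Csf1r to the left at -3.16.

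Csf2rb and Csf2rb2 are close copies, which bears on how reads were divided between them. Their coding sequences, of 2688 and 2634 bases, align over 2628 bases with 2503 identical (95.2%), and the longest run without a difference is 242 bases. The genes lie 20031 bases apart on opposite strands. The first 90 coding bases and the stretch of 90 that differs most are shown to let the copies be compared; they come from GENCODE M21 transcripts on mm10, and capitals mark the bases that differ.
Csf2rb, chromosome 15, coding bases 1 to 90: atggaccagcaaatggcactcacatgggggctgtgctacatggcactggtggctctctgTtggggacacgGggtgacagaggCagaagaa
Csf2rb2, chromosome 15, coding bases 1 to 90: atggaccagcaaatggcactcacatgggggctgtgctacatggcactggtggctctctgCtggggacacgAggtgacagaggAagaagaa
Csf2rb, chromosome 15, coding bases 301 to 390: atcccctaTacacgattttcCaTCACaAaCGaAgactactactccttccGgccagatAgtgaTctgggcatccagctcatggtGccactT
Csf2rb2, chromosome 15, coding bases 304 to 393: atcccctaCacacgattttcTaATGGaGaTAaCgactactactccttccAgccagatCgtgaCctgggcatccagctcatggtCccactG
The first pair differs at 3 bases and the second at 15.

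Of all 31-base words in the annotated transcripts, 19.7% of those of Csf2rb and 30.1% of those of Csf2rb2 occur in another gene, 1369 of them in both. The gene tables gave the same posterior SD of the count for both genes, 5.22, 5.30 and 4.39 in replicates 1, 2 and 3, a small number beside 1216 to 3744 counts. Csf2rb lay below Csf2rb2 by 0.26, 0.35 and 0.33 log2 units in the gene tables (difference -0.31 ± 0.05, SD, n = 3; exact p = 0.25, adjusted 0.31). With the deposited second transcript table the difference turned to 0.96, with Csf2rb above. Csf2rb stayed below in log2(CPM + 1), at -0.90, and over coding transcripts only, at -1.25. Over the coding transcripts of the second table it was below as well, at a mean of 37.1 TPM against 49.8 TPM for Csf2rb2. Over all transcripts, the order of the 2 beta chain genes depended on the table and is uncertain. Whether shared reads had a part in this was not tested.

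Other members also share sequence. Csf1r shares 843 of its 5786 words with Hmgxb3, a gene on the opposite strand that overlaps its 3′ end; Hmgxb3 had 14.3, 21.6 and 21.3 TPM, and both genes had posterior SDs of 3.41, 4.10 and 4.23. Whether the counting used strand is not stated in the sources used here, so reads of the overlap cannot be divided with certainty. Csf3r shares 728 of its 3657 words with the processed pseudogene AC105061.2 on chromosome 19, which took 0, 0 and 2 counts. Csf1 and Csf3 share none, and Csf2ra shares 0.443% of its words.

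The second transcript table gave all 8 genes higher levels, summed over transcripts, as it did for coding genes in general, whose median ratio to the gene table was 1.59. The ratio of mean TPM was lowest for Csf2ra (1.20, 137 against 114 TPM) and Csf1r (1.36, 117 against 86.1 TPM). It was 1.74 for Csf1, at 287 TPM, and 3.61 for Csf2rb, at 106 TPM against 29.3 TPM, with 3.28 to 3.95 over the libraries. Of the coding genes at a mean of 1 TPM or more, 30.9% had a ratio over 2, and Csf2rb alone of the members did. There, Csf2rb-203, a processed transcript of 328 bases, held 21.7 ± 4.44 TPM (SD, n = 3) in the second table and no TPM in the first.

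**Figure D4:**
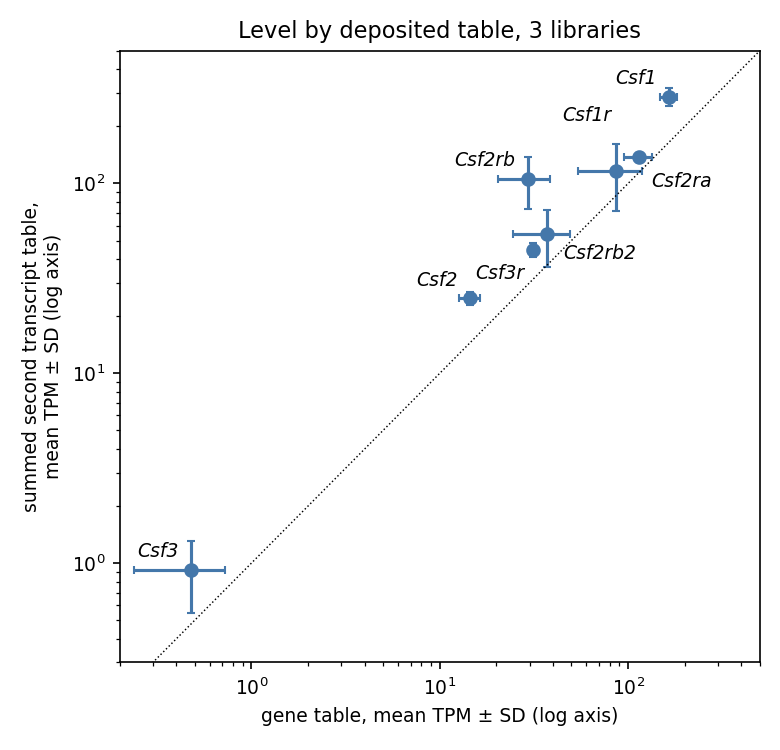
Mean TPM ± SD over 3 libraries of each gene in the deposited gene table (horizontal log axis) and summed from the second transcript table (vertical log axis), with equality as a dotted line. All 8 genes lie above the line, and Csf2rb lies farthest from it, at 106 TPM against 29.3 TPM.

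The members varied differently between libraries. The SD of log2(TPM + 1) was 0.49 for Csf1r, above 93.7% of 6140 coding genes with a mean of at least 100 counts, 0.46 for Csf2rb2 (91.2%) and 0.42 for Csf2rb (87.2%), against a median of 0.24. It was 0.04 for Csf3r, above only 1.8% of those genes, and 0.16 for Csf1 (22.8%). Library scale itself moved: the median coding gene in replicate 2 was 0.24 above the mean of the other libraries, and in replicate 1 it was 0.31 below. Csf1r in replicate 2 stood 0.85 above the other libraries, where 3.09% of coding genes deviated as far upward, and Csf1 deviated by -0.27, where 5.99% of coding genes were as low.

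CPM values with TMM factors, which set the median deviation of replicate 2 at -0.05, left some of these and not others. Csf1r had 355, 464 and 284 CPM in replicates 1, 2 and 3 on this scale, still highest in replicate 2 (0.55 above the others), and Csf1 had 663, 413 and 570 CPM, still lowest there. Csf2rb had 93.0, 107 and 99.9 CPM, so its deviation in replicate 2 was 0.15 log2 units, which 24.9% of coding genes reached. Csf3r had 117, 80.5 and 87.6 CPM, and its SD stood at the 82.1 percentile, so its evenness holds for TPM and not for CPM. The same holds for Csf1, whose SD stood at the 89.7 percentile in CPM, whereas Csf2rb stood at 25.8, Csf2rb2 at 72.6 and Csf1r at 90.3. Replicate 2 was made from the least RNA. Its macrophage marker sum was the highest, but Gpnmb alone gave 1510 TPM of it, against 828 and 1154 TPM in replicates 1 and 3. The median of the macrophage markers in log2(TPM + 1) was 5.43, 5.82 and 5.78 in replicates 1, 2 and 3. The part of RNA amount or of marker level in these deviations was not tested.

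**Figure D5:**
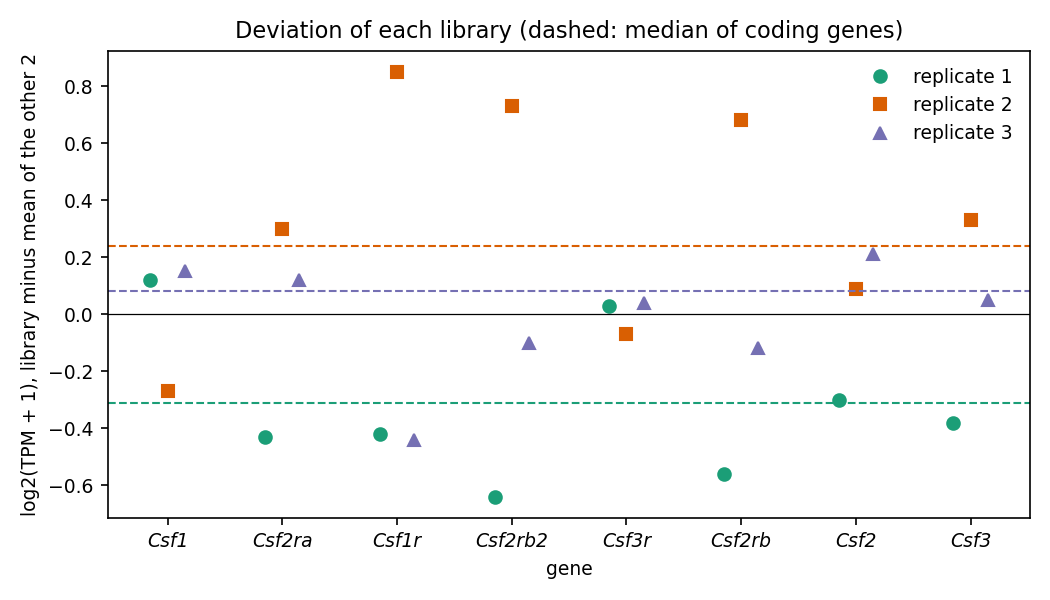
Each library's log2(TPM + 1) minus the mean of the other 2 libraries (vertical axis) for each gene, with dashed lines at the median of 6140 coding genes in replicates 1 (-0.31), 2 (0.24) and 3 (0.08). Csf1r, Csf2rb2 and Csf2rb lie above the replicate 2 line, at 0.85, 0.73 and 0.68, and Csf1 lies below it at -0.27.

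The genes nearest in pattern were those with the smallest maximal difference in log2(TPM + 1) over the 3 libraries. For Csf1r they were Mtss1 (66.8, 109 and 64.4 TPM, difference 0.169) and Specc1 (65.2, 111 and 76.1 TPM, 0.175), and for Csf1 they were Ncf1 (173, 156 and 170 TPM, 0.106) and Ube2f (0.157). Csf2rb2 was nearest to Srsf7 (0.085) and Plpbp (0.089), and Csf2rb to Slc43a2 (0.011) and Tet3 (0.048). Csf2ra was nearest to Camk2d (0.019) and Sh3bgrl2 (0.057), Csf2 to Kmt2e (0.024) and Zkscan17 (0.036), and Csf3r to Nfxl1 (0.037) and Rrp1 (0.053). With 3 libraries such nearness is common: 226 coding genes lay within 0.25 of Csf2 in each library, but only 5 lay so near Csf1r and 8 so near Csf1.

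Genes around the 8 members were read from lists by role. Of 7 related ligands only Flt3l, the ligand of the FLT3 kinase, was detected, at 2.49 ± 0.343 TPM (SD, n = 3). Kitl, the stem cell factor gene, was at 2.53, 0.810 and 1.78 TPM. Il34, the second ligand of CSF1R, had 0, 1 and 0 counts, and Epo had none. Of 9 related receptors only Il3ra, the IL-3 alpha chain gene, was detected, at 6.45 ± 1.12 TPM, while Il5ra, the IL-5 alpha chain gene, had no count, and Ptprz1, a known IL-34 receptor gene, had 1 count in 1 library. Among the alpha chain genes of the beta common chain, Csf2ra was at 114 TPM over all transcripts and 13.0 TPM over coding ones, Il3ra at 6.45 TPM and Il5ra at 0. In the second table Il3ra was at 12.6 TPM and Il5ra at 1.35 TPM, and 2 related ligands and 3 related receptors were detected.

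The machinery below the receptors was broadly present. Of 22 genes of CSF1R signalling 20 were detected, where 35.7% of all coding genes were; the list was made of genes known from myeloid cells. Syk, a kinase that acts beneath several myeloid receptors, was highest at 506, 676 and 588 TPM (590 ± 84.7), then Pik3r1, the PI3-kinase regulatory subunit gene, at 236 ± 5.64 and Adam17, which sheds CSF1 and CSF1R from the cell surface, at 95.8 ± 9.14 TPM. Lyn, a Src family kinase, was at 64.5 ± 15.4 TPM, whereas Fgr, of the same family, was at 0.163 ± 0.110 and Sos1, a RAS activator, at 1.33 ± 0.359 TPM. Of 12 of these genes tested by isoform, 2 had higher retained-intron isoforms (Pik3r1 at 1.52 and Adam17 at 0.52 log2 units, limma adjusted p = 2.54e-05 and 0.0107), 6 had higher coding isoforms and 4 passed in neither direction. The shares over all genes tested were 35.5% and 31.8%, and with 12 genes these counts are given as a description only.

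Of 17 genes that act below the beta common chain and CSF3R 15 were detected, where 35.7% of all coding genes were. Like all lists here, this one was chosen with earlier results of these data known. Pim1, a survival kinase gene induced through STAT5, had 232, 232 and 235 TPM (233 ± 1.61), Mcl1 and Bcl2l1, which hold off cell death, were at 222 ± 37.5 and 121 ± 5.41, and Socs3, the feedback inhibitor of CSF3R, was at 110 ± 15.8 TPM. Socs1 and Socs2, inhibitors of the same family, were at 1.35 ± 0.561 and 0.660 ± 0.608 TPM. Of 6 genes tested by isoform, 4 had higher coding isoforms, with Pim1 at -3.86 (SE 0.17, limma adjusted p = 9.07e-07), 1 had higher retained-intron isoforms and 1 passed in neither direction. Over all genes tested, 31.8% had higher coding isoforms and 35.5% higher retained-intron isoforms, from which counts among 6 genes cannot be set apart.

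Of 12 genes for regulators of Csf1r transcription 10 were detected, where 35.7% of all coding genes were. Tfec, a macrophage member of the MITF family, was highest at 433, 630 and 461 TPM (508 ± 106), then Runx1, at 176 ± 32.0, Ets2 at 48.5 ± 2.61 and Mitf at 36.6 ± 4.88 TPM. Tfec, Runx1 and Mitf, like Csf1r, were highest in replicate 2, and Ets2 lay between 45.5 and 50.1 TPM. The median coding gene was also higher in replicate 2, by 0.24 log2 units over the mean of the other libraries. Whether these genes vary with Csf1r beyond that shift was not tested. Cebpa and Myb, factors of earlier myeloid cells, were at 0.660 ± 0.0656 and 0.123 ± 0.0115 TPM. By isoform, 3 of 6 tested had higher retained-intron isoforms, among them Ets2 at 1.96 and Mitf at 0.63 (limma adjusted p = 1.17e-05 and 0.00493), and none had higher coding isoforms, where 35.5% and 31.8% of all genes tested did. With 6 genes these counts cannot be set apart from those shares.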

How the data were processed

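Total RNA-seq of chromatin-fraction RNA was available for 3 libraries of 1 group. Per the labels the assembly was mm10, and the deposited text files named annotation M21. Which aligner and quantifiers were used is not stated in the sources used here. For each library the authors deposited 3 tables. Per the file headers, a gene table and a first transcript table hold an expected count and TPM in columns named as by RSEM. Another transcript table, called the second here, holds an estimated count and TPM in columns named as by kallisto, per the file headers. The TPM of the authors was used as deposited. Replicates were not pooled.

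From these files, levels were taken as TPM with the SD over 3 libraries, and genes with at least 1 TPM in all 3 were called detected. Within-library differences of log2(TPM + 1) were given an exact two-sided test by flipping signs. Per gene, the sums of retained-intron and of coding TPM, each plus 0.5, gave a log2 ratio that was tested with limma 3.58.1 (intercept only, with a trend of the variance on mean level) where both classes are annotated and their mean summed TPM is at least 1; the fit was tested on simulated data. TMM factors came from edgeR 4.0.16 and size factors from DESeq2 1.42.0, used only as alternative scalings of expected counts, which were not rounded for CPM. Because reads were fragmented and short transcripts have small effective lengths, a short transcript gains much TPM from few counts. A retained-intron form shares its exons with coding forms, so isoform values rest on how the quantifier divided shared reads.

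The 8 members and all lists were chosen with earlier results of these data known. Named are the 8 members, the 4 highest and 2 lowest genes of each list (a selection), the 2 genes nearest in pattern to each detected member, and flanking coding genes. Hmgxb3, Gm12223 and AC105061.2 were named after their values were seen, because they share sequence with a member. Alternatives were the second transcript table, other scalings, pseudocounts and filters, and leaving out each library.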

Additional observations from a re-analysis of the deposited data

How the results depend on the processing

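Of the comparisons of each reported value with its alternatives, 279 kept their direction and side of the threshold or moved by less than the spread, 75 moved further and 15 reversed. Some of the 75 are levels of single genes given in other units, which move by construction. The Csf1 level, for example, was 7.37 in log2(TPM + 1) and 9.08 in log2(CPM + 1). Detection of 7 of 8 members held under every alternative tried. With the second transcript table, however, Csf3 missed the threshold in replicate 1 only, at 0.494 TPM. Leaving out a library was tried with the gene tables alone. CPM is not corrected for length, so comparisons between genes change by construction: Csf2ra minus Csf1r turned to -1.57 and Csf3r minus Csf2rb to -0.09 with log2(CPM + 1) and with TMM or DESeq2 factors. With the second transcript table Csf3r minus Csf2rb became -1.19 and Csf2rb minus Csf2rb2 0.96. Over coding transcripts only, chosen after values were seen like the shares of counts, Csf2ra minus Csf1r was -2.46, Csf2rb minus Csf2 -0.01 and Csf2 minus Csf2ra 0.16. Leaving out 1 library at a time, Csf2rb2 minus Csf3r ranged from -0.08 (without replicate 2) to 0.41, and Csf3r minus Csf2rb from -0.08 (without replicate 1) to 0.37; Csf1 minus Csf1r ranged from 0.79 to 1.36, the highest without replicate 2. Genes with higher retained-intron isoforms numbered 3201 of 6847 with the second transcript table, and those with higher coding isoforms 1116 of 3492 at a mean summed TPM of at least 5, where fewer genes were tested. Per annotated transcript, the Csf1 ratio reversed to 0.89 and the Csf2rb ratio to 1.17. The cause of the changes with the second table was not tested. No comparison between groups, paired or not, was possible because the libraries form 1 group. The depth limits Csf3, at 5 to 14 counts.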
